A study of Mus musculus with 17 samples.

Results

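The Nr4a nuclear receptors are a family of 3 genes, Nr4a1, Nr4a2 and Nr4a3, and they were taken by symbol from every table of the study. All 3 members were among the 20328 genes listed in RNA-seq and the 26650 rows listed in scRNA-seq. Nr4a1 and Nr4a3 had 3 of the 11424 regions listed for CUT&RUN of H3K27ac, a histone mark found at active promoters and enhancers, and Nr4a3 had 2 of the 3582 regions listed for ATAC-seq, which measures open chromatin. Nr4a2 had no listed region in either assay.

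The study asked what overexpression of NDST3, an enzyme that modifies heparan sulfate, does in the brain of a mouse model of Parkinson's disease (PD). All groups were wild-type (WT) female ICR mice, 8 weeks old at the lesion. Healthy controls had a sham operation. The 6-OHDA-induced PD model received the dopamine neuron toxin 6-hydroxydopamine (6-OHDA, 10 µg/µl) into the substantia nigra of 1 side of the brain. The NDST3-treated PD model received the same lesion and, 5 days later, 2 µl of an adeno-associated virus that carries human NDST3 under the CMV promoter, which is not restricted to neurons. No library of lesioned mice with an empty virus was analysed here, so NDST3 and the virus itself cannot be told apart. RNA-seq had 2 libraries of sham, 1 of 6-OHDA and 2 of 6-OHDA+NDST3, with total counts of 51003699 to 70533326. The labels do not say whether libraries of a group came from separate animals, so the p-values measure the spread between these libraries, which may be technical. H3K27ac had 2 libraries per group, deposited as 1 pooled value per group, whereas ATAC-seq had 1 library per group. scRNA-seq had 1 library each of 6-OHDA and 6-OHDA+NDST3 in the table, and sham was not listed there.

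Nr4a proteins are transcription factors without a known physiological ligand, and their activity is set mainly by how much of them is made. All members are immediate early genes, which are transcribed within minutes of a stimulus such as calcium or cAMP signalling in neurons or antigen receptor signalling in lymphocytes. Nr4a2 (Nurr1) is needed for the development and upkeep of midbrain dopamine neurons, where it drives Th and Slc6a3. Nr4a1 (Nur77) and Nr4a3 (Nor1) are known from stimulated neurons, macrophages and T cells, and in T cells the family as a whole rises with activation and with the exhausted state.

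The promoter sequences are shown because the members share a short motif known from cAMP response elements. In GRCm38.p6, Nr4a1 (NCBI Gene 15370) lies on chromosome 15 from 101253902 to 101274795, Nr4a2 (NCBI Gene 18227) on chromosome 2 from 57106830 to 57124003, and Nr4a3 (NCBI Gene 18124) on chromosome 4 from 48045078 to 48086447. All 3 are protein coding, with 7, 5 and 6 RefSeq transcripts in the RNA-seq table. The 250 bases before the start site in the RefSeq promoter table of that build are given 5′ to 3′ on the strand of the gene. Capitals mark each match to the half-site of the cAMP response element, TGACG, or its reverse complement CGTCA. Nr4a1 is shown from chr15:101266596-101266845, a start site inside the gene record, which begins further upstream, and Nr4a2 from chr2:57124004-57124253 (minus strand). Of Nr4a3, whose gene record begins inside the window, only 2 stretches of 30 bases are shown, from chr4:48045089-48045118 and chr4:48045145-48045174.
Nr4a1: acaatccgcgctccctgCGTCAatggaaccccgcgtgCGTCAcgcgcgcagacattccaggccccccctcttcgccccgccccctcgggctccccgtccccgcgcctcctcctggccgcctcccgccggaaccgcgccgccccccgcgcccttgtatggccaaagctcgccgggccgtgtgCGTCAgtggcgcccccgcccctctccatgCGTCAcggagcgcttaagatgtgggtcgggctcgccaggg
Nr4a2: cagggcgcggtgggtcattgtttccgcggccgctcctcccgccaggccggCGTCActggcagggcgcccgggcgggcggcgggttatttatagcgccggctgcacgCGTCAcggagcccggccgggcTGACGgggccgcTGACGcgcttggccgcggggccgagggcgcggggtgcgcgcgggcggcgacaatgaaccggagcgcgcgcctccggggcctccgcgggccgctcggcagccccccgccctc
Nr4a3, from -216: tgtCGTCAcatTGACGtctcgcattccagg
Nr4a3, from -160: cctgtggcataaaTGACGtgccgagagagc

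Each member held 4 half-sites in its 250 bases. Of the 32851 promoter windows of this length in the table, 17.8% held at least 1 half-site on either strand and 0.137% held at least 4. The members' windows were rich in G and C (63.6% to 80.0%, against a median of 52.4%). Among the 6582 windows with at least the lowest of these values, 0.3798% held at least 4. No member's window held the full element TGACGTCA, which contains the half-site on both strands and was found in 1.55% of windows. None held the site that Nr4a proteins bind as monomers (AAAGGTCA, 1.34% of windows) or the AP-1 site (TGANTCA, 6.75% of windows). These are matches of letters and not measured binding.

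In RNA-seq, the members went in different directions after the lesion. Nr4a2 fell to 17.98% of the mean level of sham, whereas Nr4a1 rose to 224% of it. Nr4a3 was at 202% of the sham mean but did not pass the adjusted threshold. In the NDST3-treated PD model, Nr4a1 fell relative to 6-OHDA and stood at 106% of sham, and Nr4a3 stood at 91.1% of sham. Nr4a2 stood at 29.8% of sham. In whole tissue, fewer cells of a type and less RNA per cell cannot be told apart.

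Nr4a2 had 16.8 and 18.7 CPM (read counts scaled to library size, with edgeR's TMM factors) in the sham libraries, 3.19 CPM in the 6-OHDA library, and 3.58 and 7.02 CPM in the 6-OHDA+NDST3 libraries. Both sham libraries were above all other libraries, the 6-OHDA library was the lowest, and the pair with NDST3 differed from each other more than the lower of them differed from 6-OHDA. These levels rest on 865 and 1294 counts in sham, 165 in 6-OHDA, and 213 and 419 with NDST3.

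Nr4a1 had 7.18 and 8.15 CPM in sham, 17.2 CPM in 6-OHDA, and 8.40 and 7.84 CPM in 6-OHDA+NDST3. The 6-OHDA library was the only high one of the 5, and the sham libraries overlapped with those of the NDST3-treated PD model. The underlying counts ranged from 370 to 889.

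Nr4a3 had 4.81 and 7.30 CPM in sham, 12.2 CPM in 6-OHDA, and 4.72 and 6.32 CPM in 6-OHDA+NDST3. Its order resembled that of Nr4a1, with the 6-OHDA library above the other 4, but the sham libraries were further apart. The counts ranged from 248 to 631.

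**Figure D1:**
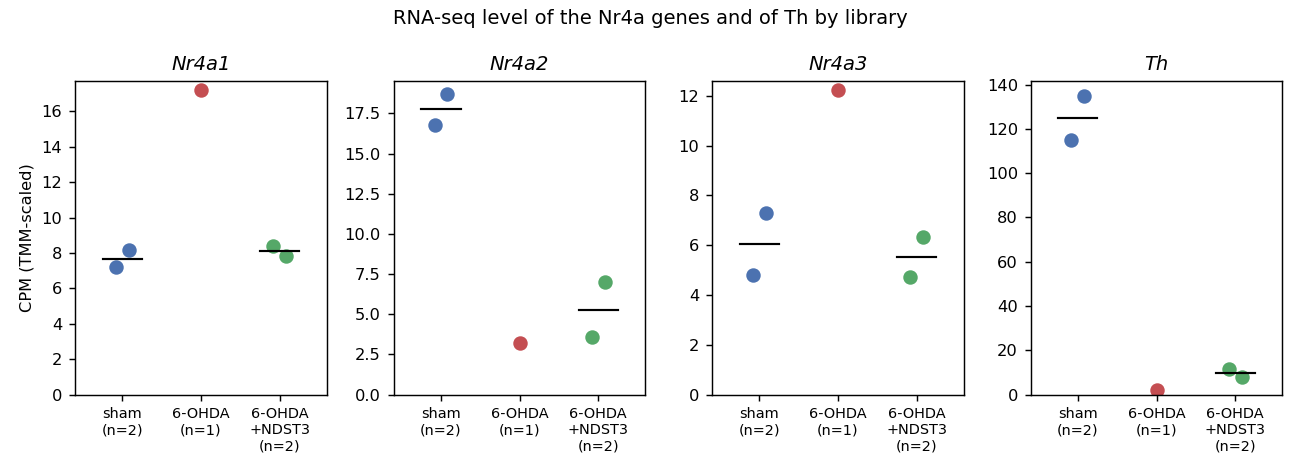
RNA-seq level of Nr4a1, Nr4a2, Nr4a3 and Th in CPM, with 1 point per library and a line at the mean where a group has 2 libraries. The 6-OHDA library is the highest for Nr4a1 (17.2 CPM) and Nr4a3 (12.2 CPM) and the lowest for Nr4a2 (3.19 CPM) and Th (2.15 CPM).

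Differences were tested by the quasi-likelihood method of edgeR, adjusted after Benjamini and Hochberg over the 19300 genes that passed the filter on low counts, and a call means an adjusted p under 0.05. For 6-OHDA against sham, the log2 fold change of Nr4a2 was -2.47 (standard error, SE, 0.47, adjusted p = 0.0170). That of Nr4a1 was 1.17 (SE 0.17, adjusted p = 0.0106), and that of Nr4a3 was 1.01 (SE 0.33, adjusted p = 0.0684). Calls were common in this comparison, with 18.8% of genes called higher and 17.1% called lower. By the threshold of the study, a 2-fold change and an unadjusted p under 0.05, all 3 members passed, as did 14.4% of genes in the higher and 10.1% in the lower direction. The single 6-OHDA library has no replicate, and its spread was taken to be that of the replicated groups. Without sham replicate 1 or 2, the adjusted p was 0.0621 or 0.0836 for Nr4a1 and 0.0777 or 0.109 for Nr4a2, and edgeR then called 0 of all genes, with 7499 and 6284 at an unadjusted p under 0.05. With the replicate number as a block, Nr4a1 had an adjusted p of 0.0607 and Nr4a2 of 0.0500004.

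In the NDST3-treated against the 6-OHDA-induced PD model, which uses the same 6-OHDA library, Nr4a1 fell, with a log2 fold change of -1.08 (SE 0.17, adjusted p = 0.0345). That of Nr4a3 was -1.15 (SE 0.33, adjusted p = 0.0723) and that of Nr4a2 was 0.73 (SE 0.43, adjusted p = 0.275). Among all genes, 9.06% were called higher and 6.59% lower. Nr4a1 and Nr4a3 passed the fold and unadjusted p threshold, as did 8.37% of genes in the lower direction. The call of Nr4a1 was lost without sham replicate 1 or 2 or 6-OHDA+NDST3 replicate 1, with adjusted p of 0.105, 0.106 and 0.0751, and with the replicate block (adjusted p = 0.159). The value of Nr4a2 rested on 1 library, since its log2 fold change was 1.13 without 6-OHDA+NDST3 replicate 1 and 0.13 without replicate 2.

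Against sham, the log2 fold change of Nr4a2 in the NDST3-treated PD model was -1.75 (SE 0.34, adjusted p = 0.167), while that of Nr4a1 was 0.08 (SE 0.15, adjusted p = 0.832) and that of Nr4a3 was -0.14 (SE 0.28, adjusted p = 0.852). Here edgeR called 0.0% of genes higher and 0.0% lower, with 2744 genes at a unadjusted p under 0.05, whereas DESeq2 called 1023 genes, Nr4a2 among them (adjusted p = 5.15e-05, against 0.0632 to 0.688 over the other 13 alternatives). Nr4a2 passed the fold and unadjusted p threshold, as did 1.08% of genes in the lower direction. Its log2 fold change was -1.34 without 6-OHDA+NDST3 replicate 1 and -2.33 without replicate 2.

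**Figure D2:**
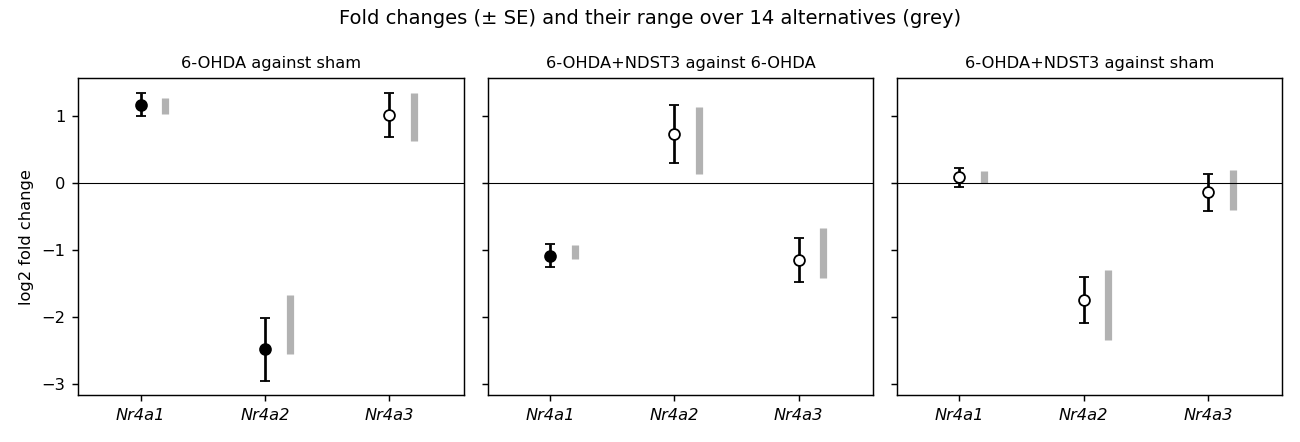
Log2 fold change of each member in the 3 comparisons (vertical axis), as the edgeR value with its standard error (points, filled where the adjusted p is under 0.05) and the lowest to highest value over 14 alternatives (grey bars). Nr4a2 is below 0 in both comparisons with sham, and Nr4a1 and Nr4a3 lie near 0 in the comparison of the NDST3-treated PD model with sham.

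The makeup of the family changed with these levels. TPM values take gene length into account and allow members to be compared. Nr4a2 made up 59.4% and 56.2% of the summed TPM of the 3 members in sham, 9.52% in 6-OHDA, and 21.0% and 33.7% in 6-OHDA+NDST3. Nr4a1 made up 30.7% and 30.9% in sham, 68.6% in 6-OHDA, and 62.7% and 48.2% in 6-OHDA+NDST3. Nr4a2 was thus the most abundant member in both sham libraries and Nr4a1 in the other 3. The log2 ratio of the TPM of Nr4a1 to that of Nr4a2 was -0.95 and -0.86 in sham, 2.85 in 6-OHDA, and 1.58 and 0.51 with NDST3, so that the libraries of the 3 groups did not overlap. The summed TPM was 21.2 and 24.8 in sham, 21.4 in 6-OHDA, and 12.1 and 15.0 with NDST3. No test was made of these shares.

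**Figure D3:**
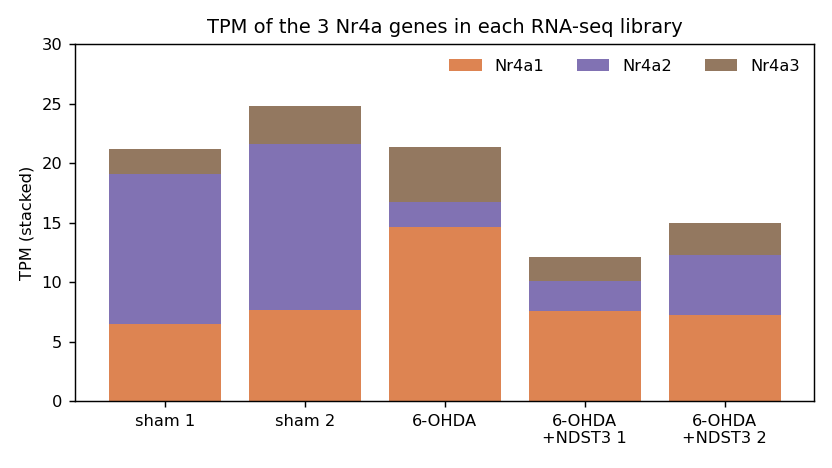
TPM of Nr4a1, Nr4a2 and Nr4a3, stacked, in each RNA-seq library. The summed height in 6-OHDA (21.4) lies between those of the sham libraries (21.2 and 24.8), but 68.6% of it is Nr4a1 against 30.7% and 30.9% in sham.

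The genes that Nr4a2 is known to regulate or to work with in midbrain dopamine neurons were lower after the lesion. Of 16 listed genes, 15 fell, beside 17.1% of all genes, and 1 did not pass the test. A log2 fold change below that of Nr4a2 was found for 10 of them. Since edgeR called 0 genes when either sham library was left out, both after the lesion and with NDST3 against 6-OHDA, every count of list genes in these comparisons was 0 there. Their median log2 fold change was -3.02, against -0.0025 over all genes tested. The largest falls were those of Slc6a3, the dopamine transporter (log2 fold change -10.55, SE 1.43, adjusted p = 0.00922), and Th, the rate-limiting enzyme of dopamine synthesis (log2 fold change -5.86, SE 0.33, adjusted p = 0.00823). Th had 115 and 135 CPM in sham, 2.15 CPM in 6-OHDA, and 11.5 and 8.03 CPM with NDST3. Its 6-OHDA level was thus 1.72% of sham, beside 17.98% for Nr4a2. In the NDST3-treated against the 6-OHDA-induced PD model, 5 of the 16 genes rose and 0 fell, beside 9.06% and 6.59% of all genes. The median log2 fold change of the 16 was 1.59, against 0.0029 over all genes. The largest rises were those of Foxa2, a transcription factor of the midbrain floor plate (log2 fold change 3.25, SE 0.48, adjusted p = 0.0335), and Slc18a2, the vesicular monoamine transporter (2.40, SE 0.28, adjusted p = 0.0320). Th, at 2.18 (adjusted p = 0.0320), was also called. Slc6a3 was at 4.62 (SE 1.39, adjusted p = 0.0798), and its 6-OHDA level rests on 8 counts.

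Against sham, the same 16 genes had a median log2 fold change of -1.70 in the NDST3-treated PD model, beside 0.0099 over all genes. Th stood at 7.80% and Slc6a3 at 1.64% of the sham mean, with log2 fold changes of -3.68 (SE 0.21, adjusted p = 0.103) and -5.93 (SE 0.76, adjusted p = 0.152). None of the 16 was called by edgeR, which called 0 of all genes here, but 13 were called lower by DESeq2 and 6 by edgeR without 6-OHDA+NDST3 replicate 1. A missed threshold in this comparison does not show that levels equalled those of sham.

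Markers of neurons as a whole were lower after the lesion too, and with NDST3 their median stood nearer to sham than Nr4a2 did. All 10 pan-neuronal markers fell after the lesion, beside 17.1% of all genes, and their summed TPM was 5745 and 6295 in sham, 2020 in 6-OHDA, and 4795 and 4493 with NDST3. With NDST3 against 6-OHDA, 7 of the 10 were called higher, beside 9.06% of all genes. The median log2 fold change of the 10 was 0.90. Nr4a2, at 0.73 (SE 0.43), lay near this median but was not called (adjusted p = 0.275). Against sham, where edgeR called 0 genes, the median of the 10 was -0.34, beside -1.75 (SE 0.34) for Nr4a2. The summed TPM of 10 dopamine neuron markers was 960 and 922 in sham, 149 in 6-OHDA, and 282 and 265 with NDST3. Both sums were higher in 6-OHDA+NDST3 replicate 1 than in replicate 2, whereas Nr4a2 was higher in replicate 2 (3.58 and 7.02 CPM). The part of these cells in the fall of Nr4a2 was not tested.

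Many immediate early genes, the class to which the Nr4a genes belong, were higher after the lesion in the same library as Nr4a1. Of 24 listed genes, 13 rose and 0 fell, beside 18.8% and 17.1% of all genes. Their median log2 fold change was 0.90. The other 11 were not called, and Arc (-0.74), Egr4 (-0.40), Fosb (-0.25), Npas4 (-0.14) and Jund (-0.14) among them were below 0. The largest rises were those of Egr2, a zinc finger factor (4.55, SE 0.54, adjusted p = 0.00850), and Atf3, a stress-induced factor of the ATF/CREB family (3.46, SE 0.37, adjusted p = 0.00823). In the NDST3-treated against the 6-OHDA-induced PD model, 5 of the 24 fell and 0 rose, beside 6.59% and 9.06% of all genes. The median log2 fold change of the 24 was -0.76. The largest falls were those of the Krüppel-like factors Klf2 (-1.21, SE 0.20, adjusted p = 0.0350) and Klf4 (-1.20, SE 0.21, adjusted p = 0.0361).

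Of 18 tested genes of the calcium and cAMP route, which acts upstream of the family, 5 rose and 4 fell after the lesion, near the 18.8% and 17.1% of all genes called, so these counts are no result about the list. Nfatc1, a calcineurin-dependent factor of lymphocytes and vessels, rose by 2.09 (SE 0.21, adjusted p = 0.00823), and Mef2c, a member of the MEF2 family, which acts at the Nr4a1 promoter, by 1.64 (SE 0.30, adjusted p = 0.0159). The falls were led by Camk2b, a neuronal calcium-dependent kinase (-1.08, SE 0.24, adjusted p = 0.0254), and Nfatc2 (-0.79, SE 0.18, adjusted p = 0.0265). With NDST3 against 6-OHDA, Nfatc1 (-1.18, adjusted p = 0.0370) and the CREB relative Atf1 (-0.92, adjusted p = 0.0384) were among 3 genes that fell, and Atf2 (0.59, adjusted p = 0.0424) was the 1 that rose. Among all genes, 6.59% were called lower and 9.06% higher there. Of 14 partners and corepressors of Nr4a proteins, Hdac1 (0.98, adjusted p = 0.0170) and Rcor1 (0.59, adjusted p = 0.0382), both parts of the CoREST repressor complex, rose after the lesion. None of the 14 was called with NDST3 against 6-OHDA.

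Of 13 other orphan nuclear receptors, 1 rose and 6 fell after the lesion, beside 18.8% and 17.1% of all genes. Nr2e1, a receptor of neural progenitors, was the 1 that rose (1.49, SE 0.34, adjusted p = 0.0279), and the falls were led by Nr5a2 (-3.21, SE 0.77, adjusted p = 0.0320) and Esrrb (-2.58, SE 0.31, adjusted p = 0.00850). With NDST3 against 6-OHDA, 3 rose, led by Nr5a2 (3.70, adjusted p = 0.0433) and Esrrb (2.19, adjusted p = 0.0320), and 0 fell. Among all genes, 9.06% were called higher and 6.59% lower there.

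Genes of T cell activation and of the dysfunctional state linked to Nr4a factors were measured in the same tissue. They were not confined to T cells. In scRNA-seq (scale given below), 12 of the 25 were above 0.1 in cluster 3 and 11 in cluster 6. Both clusters had all 8 microglia markers above 0.1. Which cells gave the changes in whole tissue was not tested. Of 25 listed genes, 18 were in the RNA-seq table, which holds only genes with at least 1 count in every library. After the lesion 9 of them rose and 2 fell, beside 18.8% and 17.1% of all genes. The 2 falls are thus no result about the list. Tnfrsf9, a costimulatory receptor (4.36, SE 1.08, adjusted p = 0.0344), and Rgs1, a regulator of G protein signalling (4.05, SE 1.11, adjusted p = 0.0443), led the rises. The falls were those of the HMG box factors Tox2 (-1.60, adjusted p = 0.00823) and Tox (-0.84, adjusted p = 0.0425). Tox2 was the only gene of the list called with NDST3 against 6-OHDA (1.29, adjusted p = 0.0320), where 9.06% of all genes were called higher. Cd3e, a defining T cell gene, was not in the table, and 10 of 14 T cell markers were, with a summed TPM of 18.02 and 19.83 in sham, 16.8 in 6-OHDA, and 19.7 and 25.2 with NDST3. The sum does not show the direction of most markers. Of the 10, Cd28 alone was called after the lesion (3.84, SE 1.04, adjusted p = 0.0435). Their median log2 fold change was 1.17, with Trac (-0.90) and Bcl11b (-0.51) below 0.

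Summed levels of the markers of myeloid cells, neutrophils, B cells, astrocytes and vessel-associated cells were highest in the same library as Nr4a1 and Nr4a3. The summed TPM of 8 microglia markers was 404 and 305 in sham, 2266 in 6-OHDA, and 842 and 1461 with NDST3, and that of 7 monocyte or macrophage markers was 685 and 292, 6606, and 1802 and 3131. That of 8 mural or fibroblast markers was 313 and 214 in sham, 857 in 6-OHDA, and 149 and 193 with NDST3. The 4 neutrophil markers in the table, of 8, summed to 12.3 and 10.3 TPM in sham, 79.7 in 6-OHDA, and 29.2 and 53.6 with NDST3, and the 7 B cell markers, of 12, to 38.8 and 33.0, 79.2, and 38.2 and 54.9. The B cell markers did not move as 1, since 3 were called higher and 2 lower after the lesion, beside 18.8% and 17.1% of all genes. The lower ones were Pax5 (log2 fold change -3.01, adjusted p = 0.0320) and Ebf1 (-1.14, adjusted p = 0.0115). Astrocyte markers (8) summed to 4066 and 3144, 7907, and 4686 and 5505 TPM, and endothelial markers (7) to 294 and 248, 360, and 218 and 258. The part of these cells in the values of Nr4a1 and Nr4a3 was not tested.

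In scRNA-seq, the table gives for each of 9 clusters the mean over cells of the natural log of 1 plus the count per 10000, so the levels below are on that scale and the differences are NDST3-treated minus 6-OHDA. With 1 library per group there is no replicate and no test, and neighbours in an order of clusters cannot be separated by their spread. The table holds means only, so cells, doublets and shared barcodes were not examined. Clusters are named by number, with their markers given where they bear on a result.

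Nr4a2 was highest in cluster 4, at 1.58 in 6-OHDA and 2.22 with NDST3, followed by cluster 8 at 1.15 and 1.14, and by cluster 5 at 0.84 and 0.90. These 3 places were the same in both libraries. It was lowest in cluster 6, at 0.063 and 0.10.

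Neither cluster 4 nor cluster 8 had the markers of neurons. In both, 0 of 10 dopamine neuron markers and 0 of 10 pan-neuronal markers were above 0.1 in either library. Th, Pitx3 and Foxa2 were at 0 in both libraries of both clusters, and of the 10 dopamine neuron markers Ret was the highest, at 0.044 in cluster 4 and 0.081 in cluster 8. By contrast, 14 of 14 T cell markers were above 0.1 in both clusters, with Cd3e, a chain of the T cell receptor complex, at 1.62 and 2.17 in cluster 4 and 0.87 and 1.30 in cluster 8. All 14 markers of NK and innate lymphoid cells were above 0.1 in cluster 8, and 12 of 14 in cluster 4. Cluster 4 is T cell-like by these markers. Over all 9 clusters, the highest pan-neuronal marker was Map2 at 0.55 in cluster 2, where Nr4a2 was at 0.24 and 0.25.

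**Figure D4:**
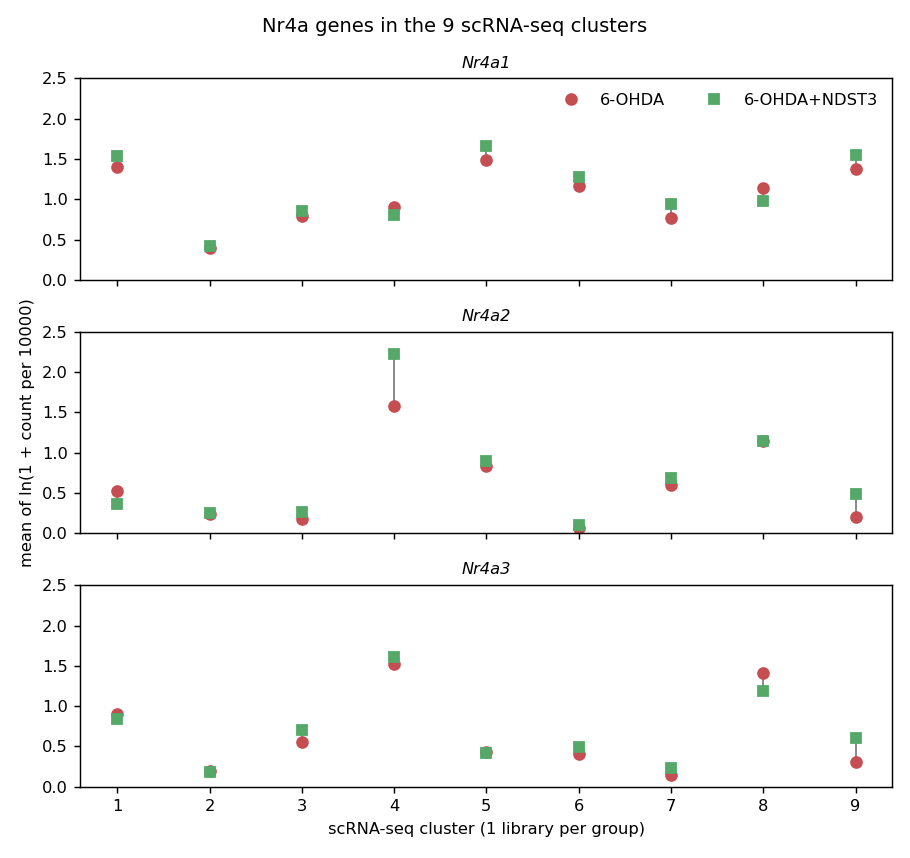
Mean of ln(1 + count per 10000) of each member in the 9 scRNA-seq clusters, with a circle for the 6-OHDA library and a square for the 6-OHDA+NDST3 library. Nr4a2 and Nr4a3 are highest in clusters 4 and 8 in both libraries, whereas Nr4a1 is highest in cluster 5 (1.48 and 1.66) and lowest in cluster 2 (0.40 and 0.43).

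Nr4a3 was highest in cluster 4 too, at 1.53 in 6-OHDA and 1.61 with NDST3, followed by cluster 8 at 1.41 and 1.19 and cluster 1 at 0.91 and 0.84. In cluster 1, 7 of 8 neutrophil markers were above 0.1. The lowest levels of Nr4a3 were those of cluster 7 (0.15 and 0.23) and cluster 2 (0.19 and 0.18).

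Nr4a1 was spread over more clusters than either relative, with its lowest level at 0.40 in cluster 2. It was highest in cluster 5, at 1.48 in 6-OHDA and 1.66 with NDST3, where the median of 8 mural or fibroblast markers was 1.64 and 1.68. Cluster 1 (1.40 and 1.54) and cluster 9 (1.38 and 1.55) followed, in an order that changed between the libraries. In cluster 6, with all 8 microglia markers above 0.1, Nr4a1 was at 1.16 and 1.28. In clusters 4 and 8 it was at 0.90 and 0.81 and at 1.14 and 0.98.

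Over the 18 means, the levels of Nr4a2 and Nr4a3 had a Pearson r of 0.775, whereas Nr4a1 had an r of -0.043 with Nr4a2 and 0.065 with Nr4a3. These are descriptions over clusters that share libraries. Among 4731 genes with a highest mean of at least 0.5, the pattern most like that of Nr4a2 was that of Jmy, an actin nucleator (r = 0.952), followed by Sytl2 (0.931), the T cell receptor kinase Zap70 (0.919), the interferon gamma gene Ifng (0.911) and the NK receptor chain Klrd1 (0.911). All 5 were highest in cluster 4. For Nr4a3 the list was Runx3, a factor of cytotoxic lymphocytes (0.966), Hcst (0.946), Ugcg (0.944), Nabp1 (0.940) and Gpr132 (0.937), again all highest in cluster 4. For Nr4a1 it held Tbc1d1 (0.913), the stress-induced phosphatase subunit Ppp1r15a (0.872), Rap1a (0.840) and Actb (0.811), which were highest in clusters 1, 5 or 9. With Spearman's rho in place of Pearson's r, the 5 genes nearest to Nr4a2 kept only Jmy and those nearest to Nr4a3 kept none, while Tbc1d1, Ppp1r15a and Rap1a stayed among those nearest to Nr4a1.

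Between the libraries, differences of the members were small in most clusters. A difference of at least 0.25 was taken as the size to report, and over all clusters 0.653% of pairs of a gene and a cluster with a mean above 0.1 were that much higher with NDST3 and 0.736% that much lower. Of the 27 pairs of a member and a cluster, 3 were higher by this size and 0 lower, namely Nr4a2 in clusters 4 and 9 and Nr4a3 in cluster 9. This count depends on the scale, since on back-transformed means (the natural log of the ratio of counts per 10000 plus 0.1) 7 pairs were higher and 2 lower by that size, the lower ones being Nr4a2 in cluster 1 (-0.37) and Nr4a3 in cluster 8 (-0.30). Those counts per 10000 were taken back from means of logs and are not means of counts. No share of all pairs was taken on that scale, so its counts cannot be set against a background. Nr4a1 was higher with NDST3 in 7 clusters and lower in 2, by at most 0.18 in either direction, and the 2 lower ones were clusters 4 and 8.

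In cluster 4, Nr4a2 was 0.64 higher with NDST3 (1.58 against 2.22), and 11 of the 6503 genes above 0.1 in this cluster rose by more. In this cluster, 1.66% of genes were higher and 1.85% lower by the size reported. Nr4a3 was 0.08 higher and Nr4a1 0.10 lower there, both within that size. Of the 25 genes of T cell activation and dysfunction, 24 were above 0.1, of which 13 were higher and 1 was lower, with a median difference of 0.30. Pdcd1, the inhibitory receptor PD-1, had the largest rise, from 0.55 to 1.86, followed by the inhibitory receptor Ctla4, from 1.25 to 2.38. Cd69, an early activation marker, was the 1 that was lower, at 1.10 and 0.74. Of 18 immediate early genes above 0.1, 0 were higher and 2 lower, namely Klf2 (1.05 and 0.50) and Fosb (0.67 and 0.31). Of the 14 T cell markers, the summed level was 18.5 in 6-OHDA and 23.4 with NDST3, and that of NK and innate lymphoid markers was 8.18 and 6.90. More cells of a type in the cluster and more RNA per cell cannot be told apart in these means, and their part in the values of Nr4a2 was not tested.

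**Figure D5:**
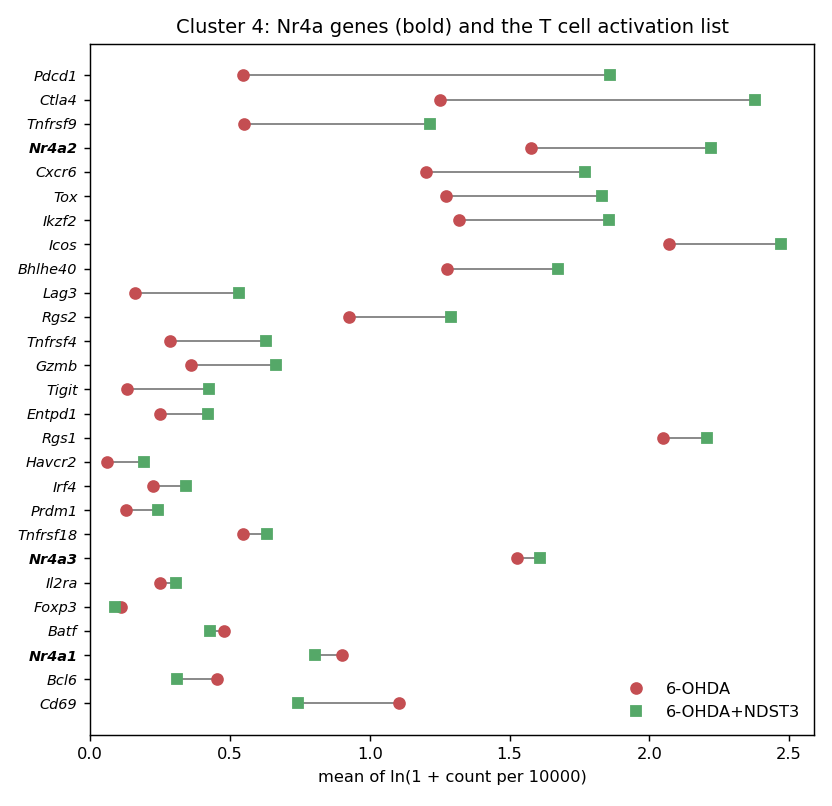
Means of the 3 members and of the 24 genes of T cell activation and dysfunction above 0.1 in cluster 4, ordered by the difference between the libraries, with a circle for 6-OHDA and a square for 6-OHDA+NDST3. Nr4a2 has the fourth-largest rise of those drawn, after Pdcd1, Ctla4 and Tnfrsf9, while Nr4a1 is lower by 0.10.

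In cluster 8, Nr4a2 was at the same level in both libraries (difference -0.0037), while Nr4a3 was 0.22 lower (1.41 against 1.19) and Nr4a1 0.17 lower. Cluster 8 shared the T cell markers with cluster 4, and the values of Nr4a2 in the 2 clusters were 0.43 apart in 6-OHDA and 1.08 apart with NDST3. In cluster 8, 0.768% of genes were higher and 0.812% lower by the size reported. Of the 25 genes of T cell activation and dysfunction, 23 were above 0.1, of which 3 were higher and 1 was lower, with a median difference of 0.056. Ctla4 (0.59 and 1.23), Tox (0.96 and 1.41) and the costimulatory receptor Tnfrsf4 (0.17 and 0.62) were the higher ones, and the chemokine receptor Cxcr6 (1.03 and 0.72) was the lower one.

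In cluster 9, Nr4a2 was 0.29 higher with NDST3 (0.20 against 0.49) and so was Nr4a3 (0.31 against 0.60), while Nr4a1 was 0.17 higher (1.38 against 1.55). In this cluster, 2.5% of genes were higher and 2.95% lower by the size reported, the largest shares of the clusters given here. All 12 B cell markers were above 0.1 there, with Cd79a, a chain of the B cell receptor complex, at 3.23 and 3.04, and 2 of 14 T cell markers were. Of 24 immediate early genes 20 were above 0.1, of which 5 were higher and 3 lower. The rises were led by Fos (0.70 and 1.43) and Junb (2.25 and 2.71), and the falls by Dusp2, a phosphatase of activated lymphocytes (1.59 and 1.28), and Jund (2.89 and 2.59). In the calcium and cAMP list, Mef2c was 0.66 higher and Mef2d 0.39 lower.

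Dopamine neuron genes could not be followed in these clusters. Of the 16 genes regulated by Nr4a2 or working with it in midbrain, only Gch1, which makes the cofactor of Th, was above 0.1 in clusters 4, 8 and 9. Clusters 2 and 7 had 3 and 4 of the 16 above 0.1, and none of the 14 pairs of such a gene and a cluster differed by 0.25 between the libraries.

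At chromatin, the listed regions of the members lay within 1000 bases of a start site, as did every region listed for either assay. H3K27ac had a region of 100 bases centred at -532 and another at -94 from the start of Nr4a1, and 1 of 124 bases at -699 from that of Nr4a3. Distances are those of the table. Its coordinates follow another build than GRCm38, so no sequence was read from them, and values are given as tag signal per group, with the libraries of a group pooled.

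For Nr4a1, the region at -532 had a signal of 16.6 in sham, 12.45 in 6-OHDA, and 14.9 with NDST3. The region at -94 had 6.77, 9.70 and 19.4. The Nr4a3 region at -699 had 37.0, 25.9 and 26.9. The median of the 11326 regions with a signal of at least 1 was 15.0, 16.4 and 22.9, so the NDST3 column was higher as a whole, by a median log2 ratio of 0.53 over sham. At a ratio of 2-fold of signal plus 1 in either direction, 12.3% of regions passed for 6-OHDA against sham, 11.1% for NDST3 against 6-OHDA and 26.3% for NDST3 against sham. Of the members' regions, the 1 at -94 of Nr4a1 passed, with a log2 ratio of 1.39 for NDST3 against sham, as did 25.7% of all regions in that direction. After each group was divided by its median the log2 ratio was 0.83, and that of the Nr4a3 region, -0.45 before, was -1.04. The 6-OHDA group had the highest Nr4a1 RNA. Before that division, its signal was neither the highest nor the lowest at -94 of Nr4a1, but was the lowest at -532. After it, the signal with NDST3 was the lowest at -532, with log2 ratios of -0.20 against 6-OHDA and -0.71 against sham.

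ATAC-seq had regions of 100 bases at -179 and at 75 from the start of Nr4a3. The signal at -179 was 169 in sham, 156 in 6-OHDA and 180 with NDST3, and at 75 it was 99.9, 83.8 and 71.04. Both regions were among the stronger ones, at the 92.5 to 95.3 and the 84.4 to 90.9 percentiles of the 3537 regions kept. Neither passed 2-fold in any of the 3 comparisons, in which 9.64% of regions passed for 6-OHDA against sham, 7.94% for NDST3 against 6-OHDA and 14.3% for NDST3 against sham. The start site implied by the table for Nr4a3 was the same base as in the promoter table, so the regions can be set against the letters shown above. The region at -179 held 3 of the 4 half-sites of Nr4a3 whole, by distance from the start site.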

How the data were processed

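The members and gene lists were chosen with earlier results of these data known. The authors aligned RNA-seq reads to mm10 with HISAT2 and quantified them with StringTie, and deposited a read count, FPKM and TPM per gene. The authors deposited scRNA-seq means whose header names mean counts, and the values fit the natural log of 1 plus the count per 10000. For both chromatin assays the authors deposited a tag signal for each promoter region, and its normalization is not given in the sources used here. The other deposited columns used hold positions and distances. Methods name mm10, but 3.29% of 9080 CUT&RUN and 9.61% of 2570 ATAC-seq start sites lay within 200 bases of GRCm38 ones.

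Counts were fitted with edgeR 4.0.16 (R 4.3.3) over all 5 libraries, with TMM factors, its default filter and 2 residual degrees of freedom. The SE of a log2 fold change is its absolute value over the root of F. The fit was tested on simulated data. DESeq2 1.42.0, limma 3.58.1 (on log2 FPKM after adding 1 or 0.1), other scalings and filters, a replicate block and leaving out each replicate were alternatives. Python 3.11.15 was used for the rest. In scRNA-seq, 4 rows whose names a spreadsheet had turned into dates were left out. Named genes were the members, at most the 2 largest called rises and falls of each list per comparison, the largest and smallest differences of a list in a cluster, checks of the labels, and the 5 nearest patterns per member, less a few genes that are not reported here. Chromatin regions were kept where at least 1 group had a signal of 1 or more.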

Additional observations from a re-analysis of the deposited data

How the results depend on the processing

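Of 126 values of the members' fold changes under 14 alternatives, 108 kept their direction and their side of an adjusted p of 0.05. DESeq2 called Nr4a3 in both comparisons with the 6-OHDA library (log2 fold changes 1.00 and -1.16, adjusted p = 0.0325 and 0.0171) and Nr4a2 in the NDST3-treated PD model against sham (-1.77). The fall of Nr4a1 with NDST3 was not called with only the libraries of the 2 groups compared (-1.08, adjusted p = 0.112) or with limma on log2(FPKM + 0.1) (-1.12, adjusted p = 0.0656). With the replicate block, no call of a member remained, at 1.19 for Nr4a1 and -2.21 for Nr4a2 after the lesion and -1.10 for Nr4a1 with NDST3. Leaving out 1 replicate at a time gave log2 fold changes after the lesion of 1.08 to 1.26 for Nr4a1 and -2.55 to -2.39 for Nr4a2, and of Nr4a1 with NDST3 against 6-OHDA of -1.14 to -1.07. Against sham, with NDST3, the near-zero values changed sign, with ranges of -0.0073 to 0.17 for Nr4a1 (lowest without sham replicate 1) and -0.40 to 0.19 for Nr4a3, which was also 0.057 without 6-OHDA+NDST3 replicate 1. Same-numbered libraries of sham and 6-OHDA+NDST3 deviated in opposite directions (r = -0.432 across genes), and no label ties a number to a batch or animal. The replicate block lowered the genes called after the lesion from 6916 to 1796 and those with NDST3 against 6-OHDA from 3019 to 0. A crossed pairing, added after the data were seen, called 7444, 4795 and 1194 genes in the 3 comparisons. With NDST3 against 6-OHDA, 5194 genes were called by DESeq2, 1 without 6-OHDA+NDST3 replicate 1, and 0 without either sham library, with only those groups, or with limma on log2(FPKM + 0.1). Against sham, 1023 were called by DESeq2, 111 without 6-OHDA+NDST3 replicate 1 and 1 without replicate 2. The back-transformed scRNA-seq means moved 6 of 27 differences across the size of 0.25, 4 of them higher and 2 lower with NDST3, and reversed none. The single 6-OHDA library, the single scRNA-seq library per group and the pooled H3K27ac values limit every statement on the lesion.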
